A study of Drosophila mojavensis with 127 samples.

Results

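The 200 transcripts described here were the most strongly female-biased ones, among 14528 measured in the cactophilic fly Drosophila mojavensis, whose level in females hardly moved with mating. They were chosen on measured values: the array values of each group were averaged, the mean of 16 female group means was subtracted from the mean of 16 male group means (the sex difference, on the log2 scale), and the 200 lowest sex differences were kept among transcripts whose mean mating difference in females, mated minus nonmated, was under 0.5 in size. The flies were wild type and came from 4 localities: San Quintin (stock SQ08) and Punta Prieta (PP08) in Baja California, and Organ Pipe National Monument in Arizona (OPNM08) and Punta Onah in Sonora (PO07) on the mainland. They grew up on fermenting cactus, either organ pipe (Stenocereus thurberi) or pitaya agria (Stenocereus gummosus), and males and females, mated or nonmated, were analysed apart, which gave 32 groups. Total RNA was labelled with Cy3 and hybridised to single-colour NimbleGen arrays; 127 arrays gave 123 replicates, 61 of males and 62 of females, with 4 replicates in 27 groups and 3 in 5 groups. The labels state neither the tissue nor the age of the flies, each region rests on 2 localities, and whether replicates are separate cultures is not stated in the labels, so that p-values reflect only how far these samples spread, possibly for technical reasons.

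In female flies the ovary makes up much of the body, and the germline and its follicle cells supply each egg with RNA and shell proteins. Transcripts with much higher levels in female than in male Drosophila are for that reason known to come largely from the ovary. They include maternal RNAs laid down in the egg, genes of the oocyte cell cycle, and genes for vitelline membrane and chorion. Mating is known in Drosophila to raise egg production through seminal fluid peptides. The identifiers of the array are transcript numbers, the files do not pair them with gene names, and none of the 14528 matched the gene table used here, so no role can be given to any member, neither the egg gene lists nor those of other tissues could be applied, and no sequence is shown.

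Every member was lower in males than in females in all 16 combinations of population, host and mating status, with a median sex difference that ran from -3.31 to -2.74 between these combinations. Over the whole series the sex difference of the members ran from -6.71 to -2.61, with quartiles of -3.58, -3.06 and -2.79, so that the median member was 8.35-fold lower in males. These values chose the members and are given as a description. A sex difference of -3 or lower was found for 110 members, of -4 or lower for 30 and of -5 or lower for 7.

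The lowest sex difference belonged to FBtr0166500. Its log2 level was 6.69 to 14.34 in the 61 male replicates (median 7.55) and 13.27 to 15.14 in the 62 female replicates (median 14.80), so that the sexes overlapped, and the group means differed 105-fold. The overlap came from 2 male arrays, without which the highest male value was 10.76. FBtr0161796 came second at -6.62, with 7.16 to 14.99 in males (median 8.12) and 14.29 to 15.25 in females (median 14.98). Here 1 of these arrays, from Organ Pipe National Monument, reached the female range; the other, from Punta Prieta, was at 14.11, and the highest of the other males at 10.52. At the other end of the list, FBtr0162403 was the last transcript inside the threshold at -2.613, and FBtr0167296 the first outside it at -2.612.

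The mating condition shaped the list. Of the members, 178 had a mean mating difference within 0.1 of 0 in females, the range was -0.22 to 0.46, and FBtr0166500 was the only member beyond 0.25. Another 60 transcripts were at least as female-biased as the last member and were left out by their mating difference; 59 of these were higher in mated than in nonmated females, with a median difference of 1.19. Without the mating condition, 147 of the members would be among the 200 most female-biased transcripts.

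The 2 male arrays stood between the sexes over the whole list. The mean log2 level of the 200 members was 11.53 in replicate 1 of mated Organ Pipe National Monument males on agria and 10.19 in replicate 1 of nonmated Punta Prieta males on organ pipe. In the other 59 male replicates it ran from 8.66 to 9.17 (median 8.93), and in the 62 female replicates from 11.78 to 12.71 (median 12.31). The Organ Pipe National Monument array exceeded all 59 other male replicates in 198 of the 200 members and the lowest female replicate in 66. The Punta Prieta array exceeded the 59 in 135 members and the lowest female in 3. For these counts of single arrays the share over all transcripts was not computed, so they do not show how far this was particular to the members. All male replicates lay below all female replicates for 133 members, against 10.2% of all transcripts; without the 2 arrays this held for 197 members, against 14.4% of all transcripts; the choice of members by their sex difference goes far to fix these counts.

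**Figure D1:**
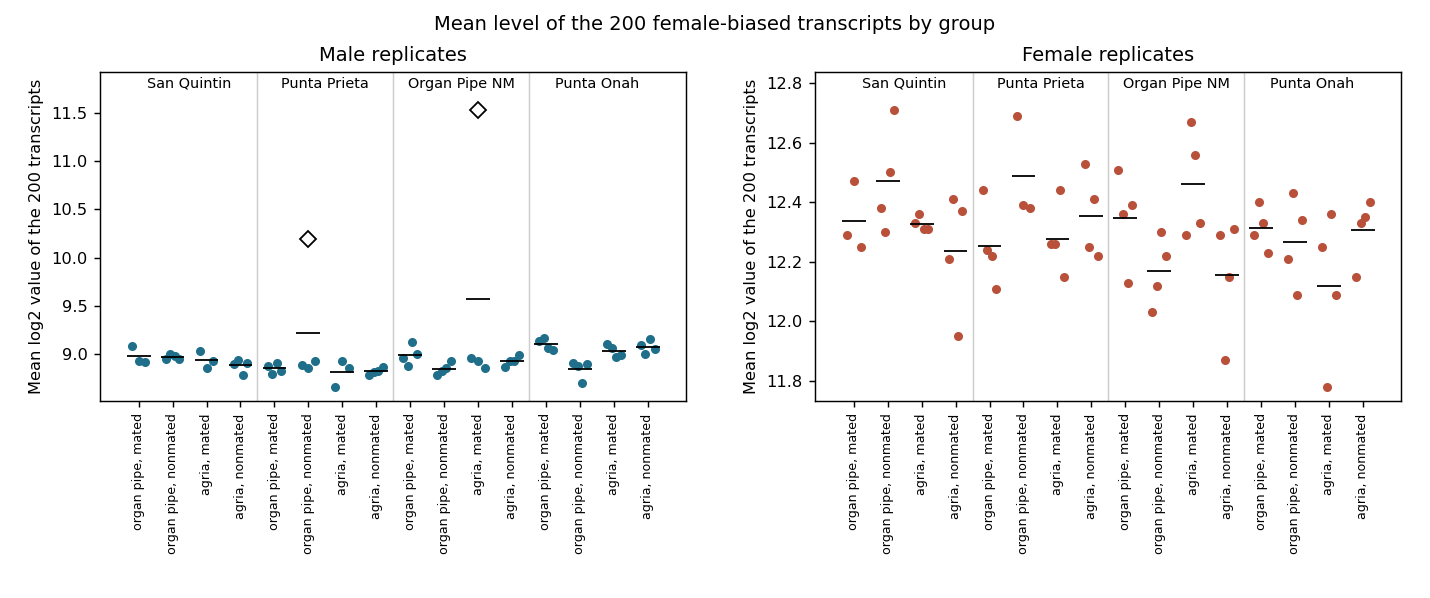
Mean log2 level of the 200 members in each replicate (points), for males at left and females at right on separate vertical scales; black lines are group means and open diamonds the 2 male arrays between the sexes. The diamonds lie at 11.53 and 10.19, the other males between 8.66 and 9.17 and the females between 11.78 and 12.71.

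The 2 arrays differed from each other in which female-biased transcripts they held. On the linear scale, the excess over the other replicates of the same group was 46.4% of the female level in the Organ Pipe National Monument array (median over members; quartiles 39.3% and 57.9%) and 11.1% in the Punta Prieta array (8.03% and 14.9%). For the 60 transcripts left out by their mating difference the order was the other way round, with medians of 17.8% in the Organ Pipe National Monument array and 28.6% in the Punta Prieta array. Their mean log2 level was 10.62 in the first array and 10.93 in the second. In females the level of most of these 60 differed between regions, which bears on such percentages. The 200 most male-biased transcripts averaged 12.49 and 13.28 in these arrays, between 12.84 and 13.67 in the other males, and between 7.73 and 9.35 in females, so that the first array fell below the other males in these transcripts and the second did not. The source of the female-biased signal in the 2 arrays was not tested. Because 1 estimate of the spread per transcript is shared by all groups, these arrays also widened the standard errors of the members in females. Most counts of called members are given with and without them, and counts for the 60 left-out transcripts only with them.

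Replicates of females varied together over the members. The median standard deviation between replicates of a group was 0.18 for the members in females, against 0.25 over all transcripts, and the mean correlation between members of their deviations from the group means was 0.52, against 0.03 between all transcripts (62 replicates, which share the array and its scaling). The first principal component of these deviations held 68.3% of the members' variance in females, with 1 sign for 196 of the 200 members, against 43.1% of the variance over all transcripts. In males the mean correlation was 0.63 with all replicates and 0.07 without the 2 arrays, where the first component held 31.7% with 1 sign for 106 members, against 37.5% over all transcripts. The members thus moved up and down together between female replicates of the same group, and with a mean correlation near 0 between the 59 male replicates. In whole RNA extracts, fewer cells of a type and less RNA per cell cannot be told apart.

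Levels of the members averaged over populations were close together in both sexes. In females the mean level over members was 12.34 ± 0.16 in San Quintin (SD, n = 15), 12.33 ± 0.15 in Punta Prieta (n = 15), 12.28 ± 0.20 in Organ Pipe National Monument (n = 16) and 12.25 ± 0.16 in Punta Onah (n = 16). The female groups ran from 12.12 in mated Punta Onah females on agria to 12.49 in nonmated Punta Prieta females on organ pipe. In males without the 2 arrays it was 8.94 ± 0.07 in San Quintin (n = 14), 8.84 ± 0.07 in Punta Prieta (n = 14), 8.92 ± 0.08 in Organ Pipe National Monument (n = 15) and 9.01 ± 0.12 in Punta Onah (n = 16). With them the Punta Prieta mean was 8.93 ± 0.35 and that of Organ Pipe National Monument 9.08 ± 0.66. Single members spread more: the range over the 16 female group means had a median of 0.53 log2 units over the members, from 0.12 to 1.45, against a median of 0.63 over all transcripts, and 18 members had a range of 1 or more.

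Differences between populations were next tested within each sex. A transcript was called where the adjusted p of limma's test was under 0.05 after Benjamini-Hochberg adjustment over all 14528. The 4 populations differed in 22 of the 200 members in females, or 11.0%, against 30.0% of all transcripts; without the 2 male arrays the count was 46, or 23.0%, against 32.2%. In males 127 members were called, or 63.5%, against 79.6% of all transcripts, and without the 2 arrays 158, or 79.0%, against 79.8%.

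Between the regions, the members called in females were nearly all higher in Baja California. There were 29 such members, 14.5% against 25.8% of all transcripts; 27 were higher in Baja California, or 13.5% against 10.5% of all transcripts, and 2 were lower, or 1.00% against 15.4%. Without the 2 male arrays 52 members were called, or 26.0% against 27.5%, 44 of them higher (22.0% of the members, against 11.5% of all transcripts) and 8 lower (4.00% against 16.1%), and these included the 29. The median difference of the members was 0.06, against -0.02 over all transcripts. A positive difference was found for 139 members, or 69.5% against 44.5% of all transcripts. Because members moved together between female replicates, the 139 do not stand for separate observations. All 27 higher members had both Baja California population means above both mainland means. A call of the region difference favours this order, and its share among all called transcripts was not computed. No called difference in females reached 2-fold.

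FBtr0172438 gave the largest rise in females. Its level was 10.90 to 12.66 in the 30 Baja California females (median 11.94) and 10.24 to 12.18 in the 32 mainland females (median 11.46), so that the regions overlapped but differed by 0.47 ± 0.11 (log2 difference ± SE, adjusted p = 0.000407). FBtr0165969 was next, at 11.24 in Baja California and 10.81 on the mainland (medians), a difference of 0.44 ± 0.11 (adjusted p = 0.00168). The larger of the falls was that of FBtr0165550, which measured 10.97 to 12.11 in Baja California females (median 11.46) and 11.51 to 12.53 in mainland females (median 12.11). Its difference was -0.61 ± 0.09 (adjusted p = 2.21e-07), and by population its means were 11.62 ± 0.27 in San Quintin, 11.31 ± 0.23 in Punta Prieta, 12.07 ± 0.35 for Organ Pipe National Monument and 12.11 ± 0.16 for Punta Onah (SD, n = 15, 15, 16 and 16). The other fall was in FBtr0162403, by 0.21 on the log2 scale (adjusted p = 0.0375), a call that was lost after a shift of the arrays to the same median and without replicate 2, 3 or 4. FBtr0165550 and FBtr0165780 had the smallest adjusted p over the 4 female populations, at 8.93e-07 and 0.000177; the second was higher in San Quintin and Punta Prieta (11.49 and 11.59) than in the 2 mainland populations (11.26 in Organ Pipe National Monument, 10.98 in Punta Onah).

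In males the called members were mostly lower in Baja California. Of 65 called members (32.5%, against 46.2% of all transcripts), 9 were higher, or 4.50% against 19.4%, and 56 lower, or 28.0% against 26.8%. Without the 2 arrays there were 83 (41.5% against 45.3%), of which 20 were higher (10.0% against 19.2%) and 63 lower (31.5% against 26.0%). The lower calls outnumbered the higher ones under each scaling tried, with 13 higher and 36 lower where the arrays were quantile normalized again. The median difference was -0.11 with all replicates and -0.07 without the 2 arrays, against -0.03 and -0.02 over all transcripts, and -0.04 after quantile normalization. Of the 56 lower members, 43 had both Baja California means below both mainland means. Without the 2 arrays this was so for 32 of 63. The share among all called transcripts was not computed in males either.

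**Figure D2:**
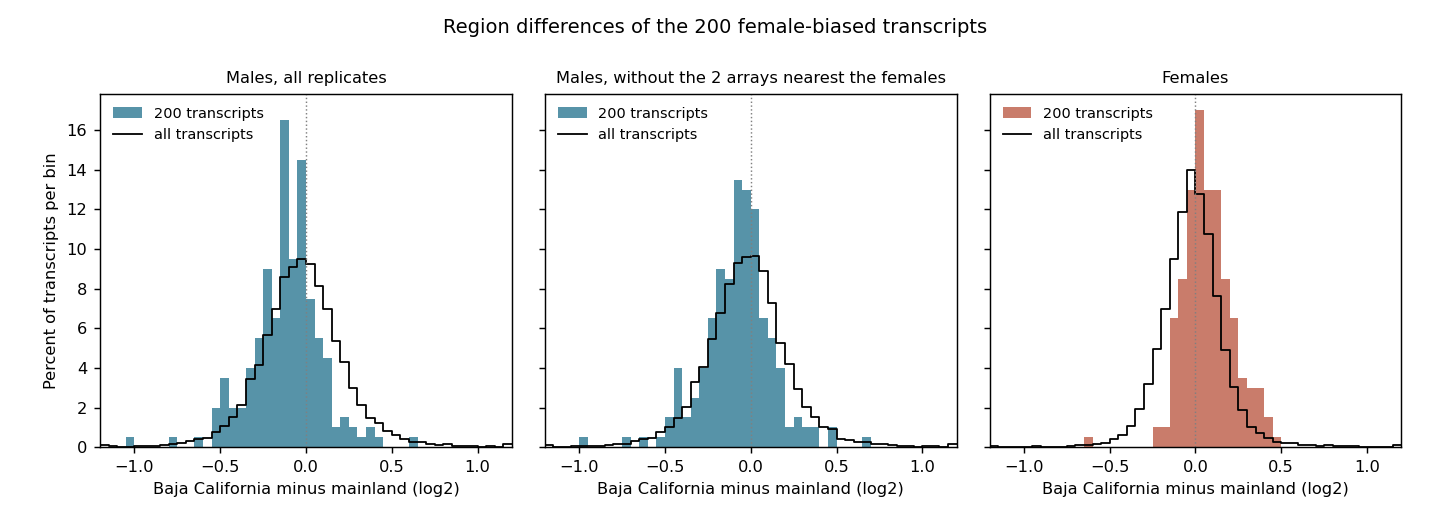
Distribution of the log2 difference, Baja California minus mainland, in bins of 0.05 over the 200 members (bars) and all 14528 transcripts (line), as a percent of each set; values beyond the axis are counted in the outer bins. In males the members centre on -0.11, or on -0.07 without the 2 arrays, and in females on 0.06.

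FBtr0164665 had the largest regional difference in males. It measured 9.48 to 12.18 in the 29 Baja California males (median 10.19) and 10.28 to 13.67 in the 32 mainland males (median 11.10); the highest value on each side was that of a male array between the sexes. Baja California males were lower by 2.02-fold, a difference of -1.02 ± 0.09 (adjusted p = 4.79e-16), and of -0.99 ± 0.05 without the 2 arrays. By population its male means were 10.34 ± 0.25 in San Quintin (n = 14), 10.16 ± 0.61 in Punta Prieta (n = 15), 11.12 ± 0.77 in the Organ Pipe National Monument and 11.40 ± 0.53 in Punta Onah flies (SD, n = 16 each), while its 4 female population means lay between 14.01 and 14.14. FBtr0166178 was lower by 0.78 (adjusted p = 7.37e-12), with medians of 8.72 in Baja California and 9.39 on the mainland. These were also the members with the smallest adjusted p over the 4 male populations, at 1.14e-15 and 5.71e-14.

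Rises in Baja California males were fewer and smaller. FBtr0173503 measured 9.60 to 11.23 in Baja California males (median 10.18) and 8.81 to 12.26 in mainland males (median 9.55). The difference was 0.64 ± 0.09 (adjusted p = 2.61e-09), and without the 2 arrays, where the mainland males reached no higher than 9.86, it was 0.70 ± 0.05. FBtr0167955 differed by 0.42 ± 0.09 (adjusted p = 2.53e-05), with medians of 9.29 in Baja California and 8.87 on the mainland.

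**Figure D3:**
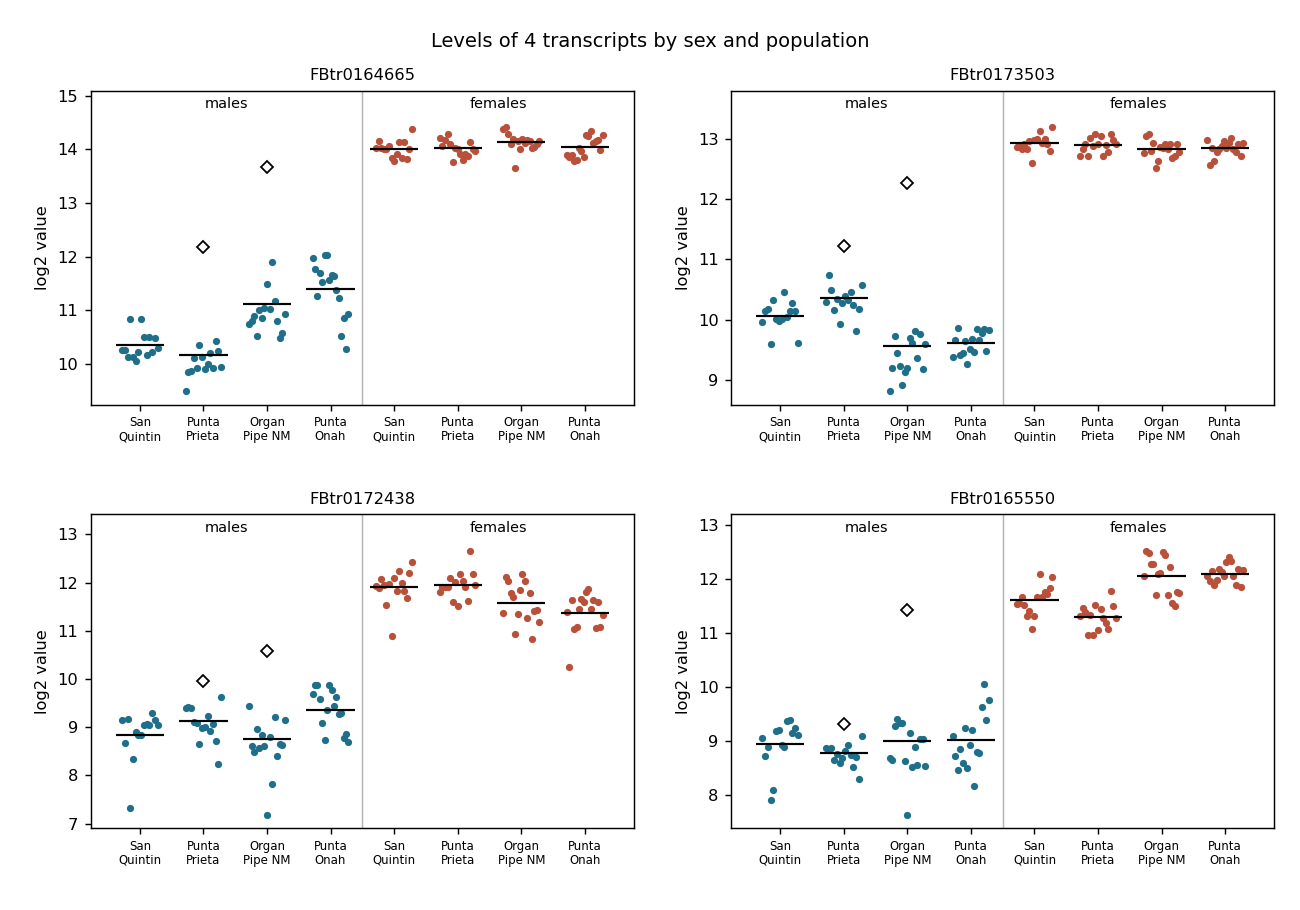
Log2 level of 4 members in every replicate (points) by sex and population, on a separate scale for each transcript; black lines are means over all replicates of a population and open diamonds the 2 male arrays between the sexes. FBtr0164665 and FBtr0173503 differ between regions in males at nearly level female values, and FBtr0172438 and FBtr0165550 differ between regions in females.

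The regional difference was tested directly for a dependence on sex. The male minus female difference was more negative in Baja California than on the mainland for 49 members and less negative for 3, together 52 or 26.0% against 24.1% of all transcripts; by direction the shares were 24.5% of the members against 12.7% of all transcripts, and 3 members against 11.5%. Without the 2 arrays the counts were 65 and 10 of 75 called (32.5% against 12.5%, and 5.00% against 11.2%). The sign was the same under each scaling tried, with 29 more negative and 4 less negative after quantile normalization. The median of this difference of differences was -0.18, or -0.14 without the 2 arrays, against -0.01 over all transcripts in both. Across the sexes, 5 members were called higher in Baja California in females and lower there in males, against 0.943% of all transcripts. There were 3 members called higher in both, against 4.24% of all transcripts, and none lower in both, against 8.96%. These counts were 10, 6 and 2 without the 2 arrays, against 1.05%, 4.43% and 9.22%.

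FBtr0164665 had the largest such change: males were below females by more in Baja California (10.25 in males, 14.01 in females) than on the mainland (11.26 and 14.09), by -0.94 ± 0.13 (adjusted p = 4.01e-08). FBtr0167108 followed at -0.87 ± 0.13 (adjusted p = 1.1e-07), with 6.90 in males and 10.61 in females of Baja California, and 7.36 and 10.21 on the mainland, so that both sexes contributed. Of the 3 members called with the opposite sign, FBtr0173503 was at 0.56 ± 0.12 (adjusted p = 0.000388) and FBtr0167955 at 0.35 ± 0.12 (adjusted p = 0.0237). The call of FBtr0167955 was lost without replicate 2, 3 or 4. FBtr0165550, whose fall in females is given above, had a difference of differences of 0.47, and of 0.53 without the 2 arrays. Over the 4 populations the sex difference varied in 79 members, or 39.5% against 56.4% of all transcripts, and in 134 without the 2 arrays, or 67.0% against 58.2%; FBtr0164665 and FBtr0167108 again had the smallest adjusted p, at 3.96e-08 and 3.66e-07.

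Within regions, members were called between populations in males but, with all replicates, not in females. For Organ Pipe National Monument minus Punta Onah, limma called no member in females (4 had an unadjusted p under 0.05), against 4.80% of all transcripts, and 3 were called without the 2 male arrays, against 5.45%. In males 97 members were called, or 48.5% against 58.2% of all transcripts, 63 higher in Organ Pipe National Monument (31.5%, against 26.3% of all transcripts) and 34 lower (17.0% against 31.8%). This balance turned with the arrays: without them 122 were called, or 61.0% against 59.0%, 48 higher (24.0% against 26.6%) and 74 lower (37.0% against 32.4%), and the median difference was -0.05, against 0.11 with them. FBtr0163014 measured 8.35 to 11.44 in Organ Pipe National Monument males (median 9.08) and 7.52 to 8.89 in Punta Onah males (median 8.18), a difference of 1.00 ± 0.13 (adjusted p = 8.99e-10). FBtr0163986 differed by 0.81 ± 0.17 (adjusted p = 3.84e-05), and by 0.56 ± 0.07 without the 2 arrays. In the other direction, FBtr0171103 measured 7.20 to 9.37 in Organ Pipe National Monument males (median 7.63) and 7.63 to 9.70 in Punta Onah males (median 9.17), a difference of -1.18 ± 0.14 (adjusted p = 3.92e-11). FBtr0171026 differed by -0.92 ± 0.13 (adjusted p = 3.55e-09).

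Between San Quintin and Punta Prieta no member was called in females (2 had an unadjusted p under 0.05), against 1.95% of all transcripts. In males 8 were called, or 4.00% against 14.4%, 5 higher in San Quintin (against 7.86% of all transcripts) and 3 lower (against 6.49%), and quantile normalization left 3 calls, all lower. Without the 2 arrays 44 were called, or 22.0% against 15.1%, 37 higher (18.5% against 8.49%) and 7 lower (against 6.64%), and the 8 were among them. FBtr0172519 measured 7.39 to 8.36 in San Quintin males (median 7.90) and 6.66 to 8.67 in Punta Prieta males (median 7.44), a difference of 0.42 ± 0.13 (adjusted p = 0.0236). FBtr0174809 differed by 0.31 ± 0.10 (adjusted p = 0.0221), and both calls were lost after quantile normalization and without replicate 2 or 4, the second also in a fit to males alone. FBtr0162956 was lower in San Quintin males, at 9.26 to 9.96 (median 9.66) against 9.74 to 10.74 in Punta Prieta males (median 10.16), by -0.45 ± 0.10 (adjusted p = 0.00166), and FBtr0166987 by -0.40 ± 0.13 (adjusted p = 0.0329), a call that was lost in a fit to males alone and without replicate 1, 2 or 4.

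The host cactus was tested first as an average over populations. In females limma called none of the members and none of all transcripts (2 members had an unadjusted p under 0.05). The member differences, organ pipe minus agria, ran from -0.20 to 0.26 with a median of 0.05, and 168 were positive, or 84.0% against 61.9% of all transcripts. Because members moved together between female replicates, the 168 do not stand for separate observations. In males none was called (6 had an unadjusted p under 0.05), against 2.00% of all transcripts, and 2 were called without the 2 arrays, against 2.31%. A dependence of the host difference on sex was called for no member (10 with an unadjusted p under 0.05), against 1.33% of all transcripts, and for 1 without the 2 arrays, against 1.25%.

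Within populations, host differences were called for the most members in Punta Onah males, with and without the 2 male arrays. In these males 39 members were called, or 19.5% against 36.9% of all transcripts, 16 higher on organ pipe (8.00% against 16.7%) and 23 lower (11.5% against 20.2%); the balance turned to 30 higher and 11 lower after quantile normalization. Without the 2 arrays, which belong to other populations, the count was 76, or 38.0% against 38.7% of all transcripts. Of these, 29 were higher (14.5% against 17.6%) and 47 lower (23.5% against 21.1%). FBtr0170021 measured 9.23 to 9.81 on organ pipe (median 9.60, n = 8) and 8.16 to 9.44 on agria (median 8.70, n = 8), a difference of 0.84 ± 0.15 (adjusted p = 6.05e-06), and FBtr0167981 differed by 0.74 ± 0.16 (adjusted p = 9.77e-05). FBtr0171103, which differed between the mainland populations above, measured 7.63 to 9.52 on organ pipe (median 8.63, n = 8) and 9.07 to 9.70 on agria (median 9.51, n = 8), a difference of -0.93 ± 0.20 (adjusted p = 0.000147). FBtr0172507 differed by -0.83 ± 0.21 (adjusted p = 0.000815). In Punta Onah females 1 member was called, against 3.73% of all transcripts: FBtr0167326, at 10.48 to 12.62 on organ pipe (median 11.80) and 12.20 to 12.91 on agria (median 12.42), lower by 0.73 on the log2 scale (adjusted p = 0.0413); it was not called after a shift of the arrays to the same median, with arrays of the same number kept apart, or without any 1 of the replicate numbers.

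In Organ Pipe National Monument males 31 members were called, all lower on organ pipe, or 15.5% against 7.38% of all transcripts; another 4.71% of all transcripts were higher, together 12.1%. Without the 2 arrays, of which 1 is in the agria group, 15 were called, 7 higher and 8 lower (4.00% against 6.44% lower), 8 of the 31 were among them, and the median difference was -0.01, against -0.32 with them. FBtr0170903 measured 7.61 to 8.81 on organ pipe (median 8.25, n = 8) and 8.04 to 13.01 on agria (median 9.70, n = 8), and its difference was -1.54 ± 0.28 (adjusted p = 0.000134), or -1.08 ± 0.19 without the 2 arrays. For FBtr0165197 the difference was -1.04 ± 0.28 (adjusted p = 0.00826), or -0.51 ± 0.15 without them (adjusted p = 0.0222), and the call was lost in a fit to males alone and without replicate 1 or 3.

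The remaining host comparisons within populations called no member. These were Organ Pipe National Monument females (3 members with an unadjusted p under 0.05; 0.00688% of all transcripts called), Punta Prieta females (1; 0.0138%), Punta Prieta males (29; 0), San Quintin females (4; 4.66%) and San Quintin males (12; 4.86%). In Punta Prieta males 180 members had a positive difference, or 90.0% against 58.5% of all transcripts, with a median of 0.21 against 0.03. With the 2 arrays left out, of which 1 is in the organ pipe group, it was 129 members, or 64.5% against 59.9%, with a median of 0.06 against 0.03. San Quintin gave 8 calls in males (4.00% against 6.35% of all transcripts) and 1 in females (against 5.02%) without the 2 arrays.

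Host differences varied between populations in 75 members in males, or 37.5% against 44.4% of all transcripts, and in 80 without the 2 arrays, or 40.0% against 45.2%, 60 of them shared. FBtr0170021 and FBtr0169000 had the smallest adjusted p, at 1.6e-05 and 4.76e-05. FBtr0169000 averaged 10.04 on organ pipe and 9.51 on agria in Punta Onah males, and 9.58 on organ pipe and 10.10 on agria in Organ Pipe National Monument males without the array between the sexes (n = 8, 8, 8 and 7), so the direction was opposite in the 2 mainland populations. In females 1 member was called, FBtr0167326 (adjusted p = 0.0287), against 8.69% of all transcripts, and 3 were called without the 2 arrays, against 9.40%.

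The difference between regions in the host response also moved with the 2 arrays, since 1 belongs to mainland males on agria and the other to Baja California males on organ pipe. In males 53 members had a more positive host difference in Baja California, or 26.5% against 12.4% of all transcripts, and no member a more negative one, against 8.54%; in all, 20.9% of all transcripts were called. Without the arrays 41 were called, 29 positive (14.5% against 12.6%) and 12 negative (6.00% against 8.84%), and the median was 0.11, against 0.35 with them. FBtr0166500 averaged 8.20 on organ pipe and 7.44 on agria in Baja California males, and 7.59 and 8.55 in mainland males, a difference of differences of 1.71 ± 0.47 (adjusted p = 0.00563) that was 0.91 ± 0.22 without the arrays. FBtr0166726 gave 1.51 ± 0.42 (adjusted p = 0.00607), and 0.86 ± 0.25 without them. Both calls were lost in a fit to males alone, and the second also without replicate 3 and with array weights, where it was 0.46. Without the 2 arrays, Baja California males on organ pipe still reached 13.69 for FBtr0166726 (median 9.73) and 10.76 for FBtr0166500 (median 7.48). In females no member was called (5 with an unadjusted p under 0.05), against 0.0826% of all transcripts.

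Mating was not used to choose members in males. There 10 members were called, all higher in mated males, or 5.00% against 6.44% of all transcripts; 7.94% of all transcripts were called in either direction. Without the 2 arrays 17 were called, 16 higher (8.00% against 6.16%) and 1 lower, 9 of the 10 among them; the median difference was 0.08 with all replicates and 0.03 without the arrays. A shift of the arrays to the same median left 2 calls. FBtr0166394 measured 8.48 to 12.07 in mated males (median 9.71, n = 29) and 7.71 to 10.43 in nonmated males (median 9.25, n = 32), so that the groups overlapped; the difference was 0.53 ± 0.10 (adjusted p = 5.36e-05) and was positive in 7 of 8 combinations of population and host. FBtr0166845 differed by 0.37 ± 0.10 (adjusted p = 0.0116), with the same sign in 5 of 8, and was not called in a fit to males alone or without replicate 2.

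In females the condition on the mean mating difference left room for differences of opposite sign within populations. That mean is taken over the same 8 combinations of population and host as the values below. Where it lies near 0, positive differences in some combinations must be balanced by negative ones in others. The choice of members thus partly sets the opposite signs, which are given as a description. Mated females had the higher member levels in Organ Pipe National Monument, with median differences of 0.15 on organ pipe (192 of 200 members positive) and 0.30 on agria (196 positive). They had the lower levels in Punta Prieta, at -0.21 on organ pipe (9 positive) and -0.07 on agria (50 positive). In San Quintin the medians were -0.13 on organ pipe (51 positive) and 0.09 on agria (177 positive), and in Punta Onah 0.03 on organ pipe (126 positive) and -0.16 on agria (10 positive). The medians over all transcripts lay between -0.03 and 0.05 in these combinations. The signs of the 8 member medians were the same under each scaling tried; for San Quintin on organ pipe a shift of the arrays to the same median gave -0.28 for the members and -0.09 for all transcripts, against 0.05 for all transcripts as deposited. Since the members moved together between female replicates, these counts of members do not stand for separate observations.

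Tested transcript by transcript, few of these differences passed. The mating difference varied between populations in 1 member in females, against 5.56% of all transcripts, and in 12 without the 2 male arrays, or 6.00% against 6.62%. The member was FBtr0166437 (adjusted p = 0.0277). Its mated females in Organ Pipe National Monument averaged 10.67 ± 0.38 and its nonmated females there 10.13 ± 0.23 (SD, n = 8 each), whereas mated females were at 10.49 ± 0.23 (n = 8) and nonmated at 10.80 ± 0.20 (n = 7) in Punta Prieta.

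**Figure D4:**
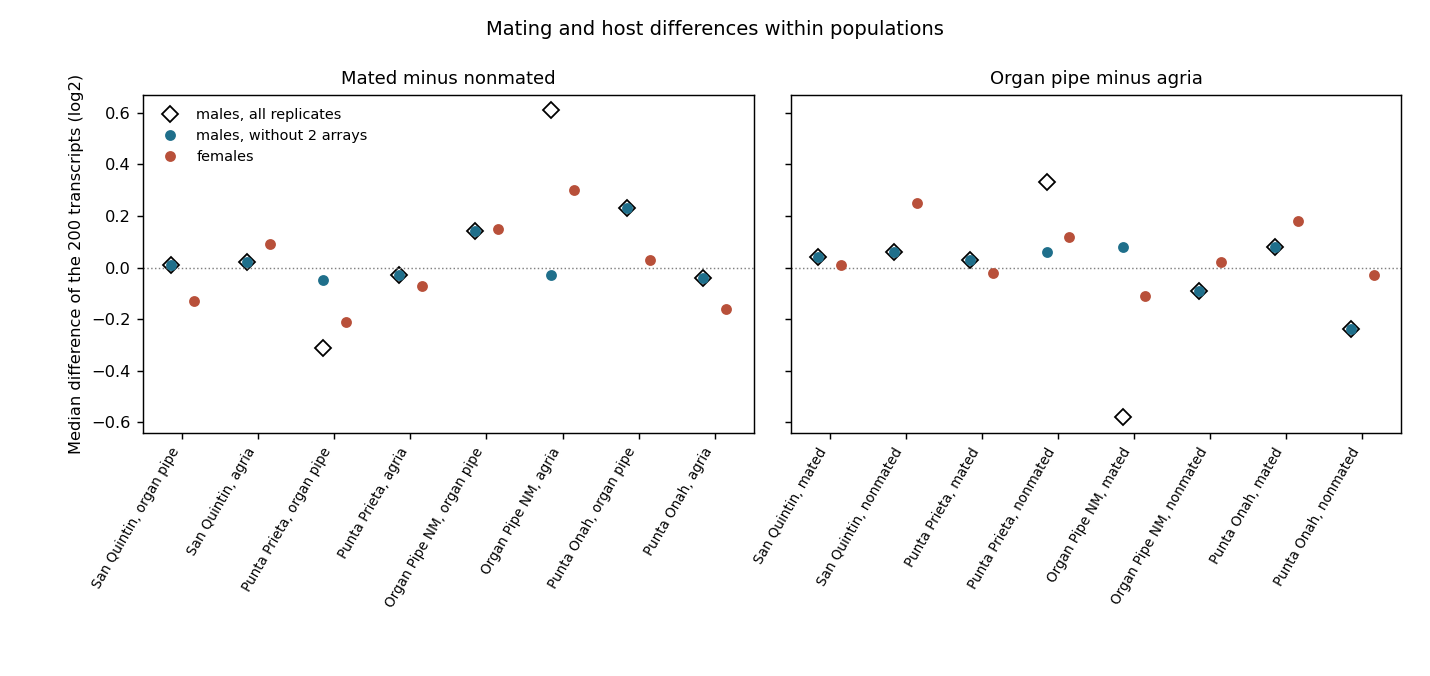
Median log2 difference of the 200 members between mated and nonmated flies (left) and between organ pipe and agria (right) within each population, for males with all replicates (open diamonds), males without the 2 arrays between the sexes (filled blue) and females (red). In males the values beyond 0.3 in size, such as 0.61 for mating on agria in Organ Pipe National Monument, are -0.05 to 0.08 without the 2 arrays.

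**Figure D5:**
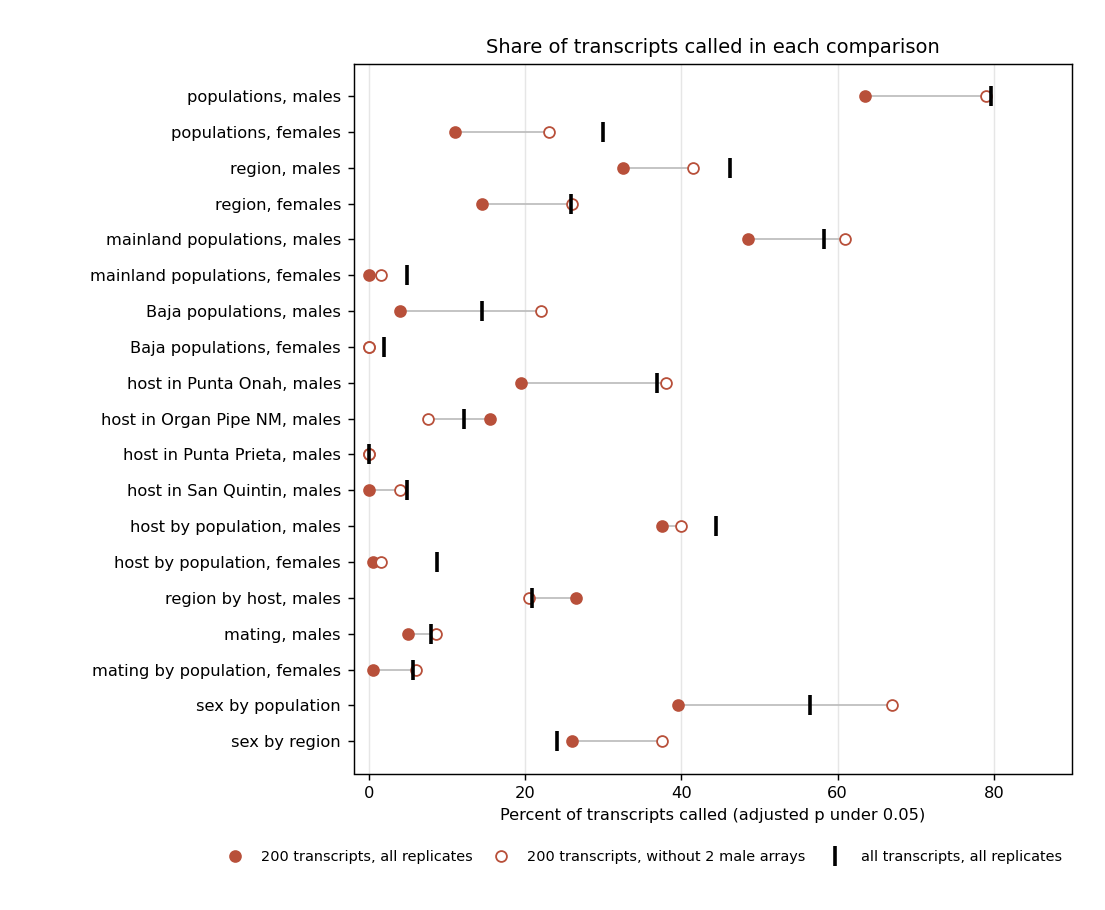
Percent of the 200 members called at an adjusted p under 0.05 in the comparisons named on the axis, with all replicates (filled) and without the 2 male arrays between the sexes (open), beside the percent of all 14528 transcripts called with all replicates (bars). In females the member share with all replicates is below the bar for the comparisons plotted, from 14.5% against 25.8% for region to 0 against 4.80% for the mainland populations.

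The 60 transcripts left out by their mating difference were set beside the members. In females 41 of the 60 were called between regions, or 68.3%, of which 40 were higher in Baja California, with a median difference of 0.59, against 14.5% and 0.06 in the members. Of all transcripts 25.8% were called in females, and 10.5% were called higher. In males 18 of the 60 were called, or 30.0%, against 32.5% of the members and 46.2% of all transcripts. The male minus female difference was called more negative in Baja California for 32 of the 60, or 53.3% against 12.7% of all transcripts. It was called less negative for none, against 11.5%. Its median change was -0.65, against 24.5% called more negative and a median of -0.18 in the members. All these counts are with all replicates. The difference between these lists was not tested.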

How the data were processed

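Per the submitters' processing notes, the authors used RMA (no version given) to make the log2 values of the deposited table. That scale was inferred from a range of 4.64 to 15.78; array medians lay between 10.15 and 10.64. Scanner files, slide positions and probe sequences were not used here. In 3 San Quintin groups, 4 pairs of arrays with the same replicate number were averaged. Members and comparisons were chosen with earlier results of these data known.

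One mean per group was fitted to all 14528 transcripts with limma 3.58.1 in R 4.3.3 (91 residual degrees of freedom, prior 4.67), with Benjamini-Hochberg adjustment over the whole table in each of 27 two-sided comparisons. The steps were tested on simulated data. Named members are those with the largest difference in each direction (at most 2) among called members with 1 sign in every combination of the other factors, or, where fewer than 2 kept 1 sign, among all called members; for tests over several populations, those with the smallest p. Alternatives were another quantile normalization, a median shift, removal of the 25% dimmest transcripts, separate use of paired arrays, a replicate block, array weights, a trended robust prior, a fit to 1 sex, and leaving out the 2 male arrays or each replicate number. For arrays, their number limits the precision.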

Additional observations from a re-analysis of the deposited data

Results flagged for a closer look

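In 41 groups of 4 to 10 samples that were examined, 5 values lay far from the rest of their group, where chance flags about 1 group in 20. Some of these values came from the same array, so they do not stand for separate samples. The mean level of the 200 members was 11.53 in replicate 1 of mated Organ Pipe National Monument males on agria, against 8.86 to 8.96 in the other replicates of that group. It was 10.19 in replicate 1 of nonmated Punta Prieta males on organ pipe, against 8.85 to 8.93 in the others. A smaller gap, downward, was found in replicate 3 of nonmated Punta Onah males on organ pipe, at 8.70 against 8.88 to 8.91. In the same way, 2 named members were set apart in that Organ Pipe National Monument array: FBtr0170903 stood at 13.01, against 8.04 to 10.16 in the other males of that population on agria, and FBtr0165197 at 12.89, against 7.95 to 9.31.

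Among the named members, 12 results differed between groups by a direct limma test of the difference. They were picked from members already called, at most 2 for each test or direction, so the naming sets this number. The counts of all called members are given in the Results. The host difference varied between populations for FBtr0167326 in females (adjusted p = 0.0287) and for FBtr0170021 and FBtr0169000 in males (adjusted p = 1.6e-05 and 4.76e-05). In males the host difference was larger in Baja California than on the mainland by 1.71 for FBtr0166500 and by 1.51 for FBtr0166726, values that were 0.91 and 0.86 without the 2 male arrays between the sexes. The mating difference in females varied between populations for FBtr0166437 (adjusted p = 0.0277). The sex difference varied between populations for FBtr0164665 and FBtr0167108 (adjusted p = 3.96e-08 and 3.66e-07). Between regions, Baja California minus mainland, it changed by -0.94 for FBtr0164665, by -0.87 for FBtr0167108, by 0.56 for FBtr0173503 and by 0.35 for FBtr0167955.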

How the results depend on the processing

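Counts of called members were computed in 27 comparisons under up to 13 alternatives, and 245 of 351 such values were within 1.5 times the count with all replicates; the causes of the other 106 were not tested, apart from the fewer samples in some. The list itself kept 192 of 200 members after another quantile normalization, 200 after the median shift and 199 without the 2 male arrays. Of 31 named differences, 21 kept their call under all alternatives run, none changed sign, and 33 of 398 single values lost the call. On average over groups, replicate numbers did not pair the samples. Deviations of same-numbered replicates from their group means correlated at -0.025 on average in females and -0.001 in males. Of these pairs, 172 of 451 and 140 of 408 were over 0.1. Single pairs ran from -0.804 to 0.782 in females and from -0.77 to 0.811 in males, and pairing within some groups only was not tested. With the replicate block the only count to move was mating by population in females, at 2. Apart from leaving out the 2 male arrays, the share over all transcripts was not computed under the alternatives, here or above. Counts under the other alternatives therefore do not show whether members were called more or less often than other transcripts.

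Without the 2 male arrays the counts that moved were, in females, 46 for populations, 52 for region, 3 for the mainland populations, 1 for host in San Quintin, 3 for host by population and 12 for mating by population. In males they were 44 for the Baja California populations, 2 for host, 76, 15 and 8 for host in Punta Onah, Organ Pipe National Monument and San Quintin, and 17 for mating. For the sex difference they were 134 by population and 1 by host.

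With array weights, whose estimation stopped before it converged, the counts in females were 87 for populations, 68 for region (43 higher, 25 lower), 24 and 16 for the mainland and Baja California populations, 4 for host, 14, 12, 3 and 4 for host in Punta Onah, Organ Pipe National Monument, Punta Prieta and San Quintin, 39 for host by population, 5 for region by host and 78 for mating by population. In males they were 38 for the Baja California populations, 15 for host, 77, 15, 43 and 5 for host in the same 4 populations, and 48 for mating, and for the sex difference 136 by population and 16 by host.

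A fit to females alone gave 75 for populations, 70 for region (56 higher, 14 lower), 14 and 3 for the mainland and Baja California populations, 7 and 2 for host in Punta Onah and San Quintin, 14 for host by population and 8 for mating by population. A fit to males alone gave 78 for populations, 2 for the Baja California populations, 18 and 8 for host in Punta Onah and Organ Pipe National Monument, 23 for host by population, 17 for region by host and 2 for mating.

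Another quantile normalization gave 3 for the Baja California populations in males (0 higher, 3 lower), 30 for region by host in males and 33 for sex by region, and turned the split of host in Punta Onah males to 73.2% higher, against 41.0%; for region in males 26.5% were higher, against 13.8%. The median shift gave 0 for host in Punta Onah females, 2 for mating in males, 4 for mating by population in females and 33.3% higher, against 62.5%, for the Baja California populations in males. Arrays of the same number kept apart gave 13 for the Baja California populations in males, and 0 for host in Punta Onah females and for host and mating by population in females; removal of the dimmest transcripts gave 0 for mating by population in females.

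Leaving out the arrays of each replicate number in turn gave, in females, 6 to 31 for populations, 14 to 32 for region, 0 to 2 for the Baja California populations, 0 to 0 for host in Punta Onah, 0 to 1 for host in San Quintin and for host by population, and 0 to 2 for mating by population. In males it gave 81 to 140 for populations, 1 to 10 for the Baja California populations, 0 to 3 for host, 17 to 54, 1 to 68 and 0 to 1 for host in Punta Onah, Organ Pipe National Monument and San Quintin, 29 to 86 for host by population, 13 to 55 for region by host and 2 to 10 for mating. For the sex difference it gave 39 to 88 by population and 24 to 48 by region. Replicate 1 holds both male arrays between the sexes; without it, host in Organ Pipe National Monument males gave 9 calls, 6 higher and 3 lower. The number of arrays limits what could be called, and signal over background was not analysed here.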
